A study of Oryza sativa Indica Group with 5 samples.

Results

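The 200 loci with the brightest array signal in developing rice seed are described here, 200 out of 48718 that carry MSU locus names. They were chosen by their mean level over all 5 arrays. Each locus was represented by its brightest probe, and its level is log2 of the processed signal minus the array's 75th percentile. Levels, ranks and shares of signal are therefore descriptions without a test, whereas the difference between the haplotypes was not used for the choice and was tested. A microarray orders probes and not transcripts, because a probe's brightness depends on its sequence and its position in the transcript as well as on RNA abundance. Of the 200 loci, 50 were given a gene or family name from general knowledge of the MSU locus names, and 150 are given by locus name only, since no annotation of these loci was used here.

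RNA came from developing seed of Oryza sativa Indica Group, taken 16 days post-anthesis. The plants were untreated and grew under glass, with day and night temperatures of 29 °C and 21 °C. The high-amylose group held 3 accessions with haplotype 8, and the waxy group held 2 accessions with haplotype 4. Every array was a custom single-colour Agilent rice array that measured another accession, with total RNA from 200 mg of pulverized seed. No accession has a replicate array, so the spread within a group joins genetic and technical differences. In bulk seed, fewer cells of a type and less RNA per cell cannot be told apart.

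A filling cereal grain devotes much of its RNA to a few storage protein families, made mainly in the starchy endosperm. In rice these are glutelins, which are held in storage vacuoles, prolamins, which collect in protein bodies of the endoplasmic reticulum, alpha-globulin, and small seed allergens related to inhibitors of alpha-amylase and trypsin. Starch enzymes work in the amyloplasts of the same cells, while the aleurone and the embryo make oil body, dehydrin and redox proteins that prepare the seed for drying.

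Array brightness, taken as the 75th percentile of the processed signal, was 183, 108 and 88.8 across the 3 high-amylose replicates, against 203 and 212 across both waxy ones. No spot was flagged as saturated. High-amylose replicates 2 and 3 shared a scan date, as did both waxy replicates, and high-amylose replicate 1 had one of its own, so haplotype and scan date cannot be told apart. All 14 starchy endosperm markers that were found had signal well above background on all 5 arrays, and 5 of them are among the 200 loci. All 5 embryo and aleurone markers were also well above background on all 5 arrays, 2 of them among the 200. Of 5 green outer layer markers 0 are among the 200, and the brightest of them ranked 12095.

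The 200 loci spanned mean levels of 11.72 to 7.23, a 22.4-fold range in signal. All 200 were well above background on all 5 arrays. The last locus inside the limit, LOC_Os11g46300, had a mean of 7.23, and the next locus outside, LOC_Os03g40440, lay 0.006 below it. LOC_Os05g42424 at 7.24 and the ubiquitin gene UBQ3 (LOC_Os04g53620) at 7.27 also stood just inside, while LOC_Os03g31630 at 7.23 and LOC_Os03g30870 at 7.22 stood just outside. The limit thus cuts through a continuous run of levels. Storage proteins filled the upper end: 19 of the 25 brightest loci and 29 of the 50 brightest were seed globulins or allergens, prolamins or glutelins. All 37 loci named to these 3 classes ranked 118 or better. Counts by class cover the 50 named loci only, and the 150 others may hold further members of any class.

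**Figure D1:**
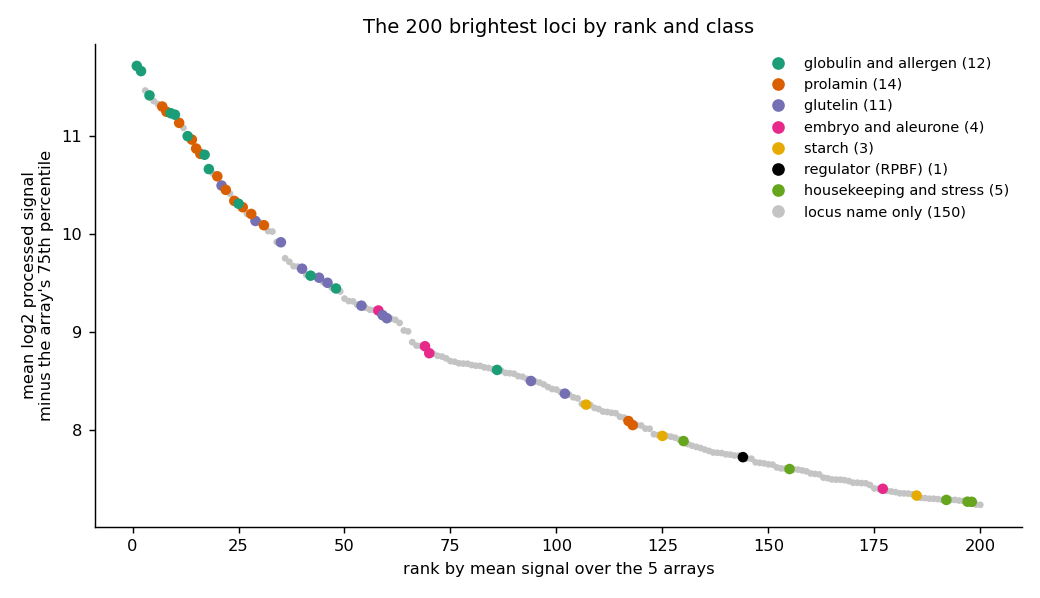
Mean log2 signal over the 5 arrays (vertical axis, relative to each array's 75th percentile) against rank for the 200 brightest loci, 1 point per locus, coloured by class with the number of loci in brackets. Storage protein classes fill most of the first 25 places, and the 150 loci known by locus name only lie along the whole range.

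The brightest locus was LOC_Os07g11410 of the chromosome 7 seed allergen cluster, with 11.39, 12.06 and 12.29 on the high-amylose arrays, against 11.52 and 11.32 on the waxy arrays. Its neighbour in the cluster, LOC_Os07g11510, had 11.33, 12.03 and 12.25 on the high-amylose arrays, against 11.39 and 11.32 on the waxy arrays. This pair held the first 2 places on each of the 5 arrays, with their order exchanged on waxy replicate 2 by less than 0.01. For both loci, high-amylose replicates 2 and 3 were the high arrays, while high-amylose replicate 1 fell among the waxy values, so the groups overlapped. At rank 3 came LOC_Os10g02040, given by locus name only, with 11.13, 12.00 and 12.00 in high-amylose seed, against 11.12 and 11.08 in waxy seed. There the groups did not overlap, yet high-amylose replicate 1 exceeded waxy replicate 1 by less than 0.01.

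Alpha-globulin (LOC_Os05g41970), a major globulin of the starchy endosperm, ranked 4. Its level was 11.31, 11.69 and 11.80 on the high-amylose arrays, against 11.30 and 10.97 on the waxy arrays. The groups did not overlap, and again the lowest high-amylose array all but met the highest waxy array. The globulin and allergen class held 12 loci, of which 9 were among the 25 brightest. The allergen cluster alone gave 9 loci, all on chromosome 7 between LOC_Os07g11310 and LOC_Os07g11650, within a stretch of 25 loci of the array. After the brightest pair, LOC_Os07g11360, LOC_Os07g11630, LOC_Os07g11330, LOC_Os07g11650 and LOC_Os07g11380 averaged 11.23, 11.22, 11.00, 10.81 and 10.66 over all 5 arrays.

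The cluster did not move as a block between arrays. LOC_Os07g11360 had 11.01, 11.50 and 11.75 in high-amylose seed, against 11.06 and 10.85 in waxy seed, the profile of the brightest pair. LOC_Os07g11310, at rank 48, had 9.58, 8.93 and 9.22 in high-amylose seed, against 9.93 and 9.56 in waxy seed. LOC_Os07g11320, at rank 42, was lower on every high-amylose array, at 9.57, 9.29 and 9.53, than on the waxy arrays, at 9.91 and 9.58. The dimmest members of the cluster thus lay lower on high-amylose replicates 2 and 3, where its brightest members lay highest. Near-identical copies, here and among prolamins, glutelins and dehydrins, may share probe targets, and cross-hybridisation between them was not tested. Array probes carry the class names JUNQ, JMULT and JXHYB. These stood for 166, 28 and 6 of the loci described here, and for 17, 4 and 4 of the 25 brightest. With JUNQ probes only, 8 of 9 cluster loci, 8 of 14 prolamins and 8 of 11 glutelins could be tested. Both cupin storage globulins, relatives of the 7S globulins of other seeds, stood below alpha-globulin and the 7 cluster loci among the 25 brightest. LOC_Os03g46100 ranked 25, at 10.34, 10.71 and 10.00 in high-amylose seed, against 10.27 and 10.23 in waxy seed, and LOC_Os03g57960 ranked 86.

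**Figure D2:**
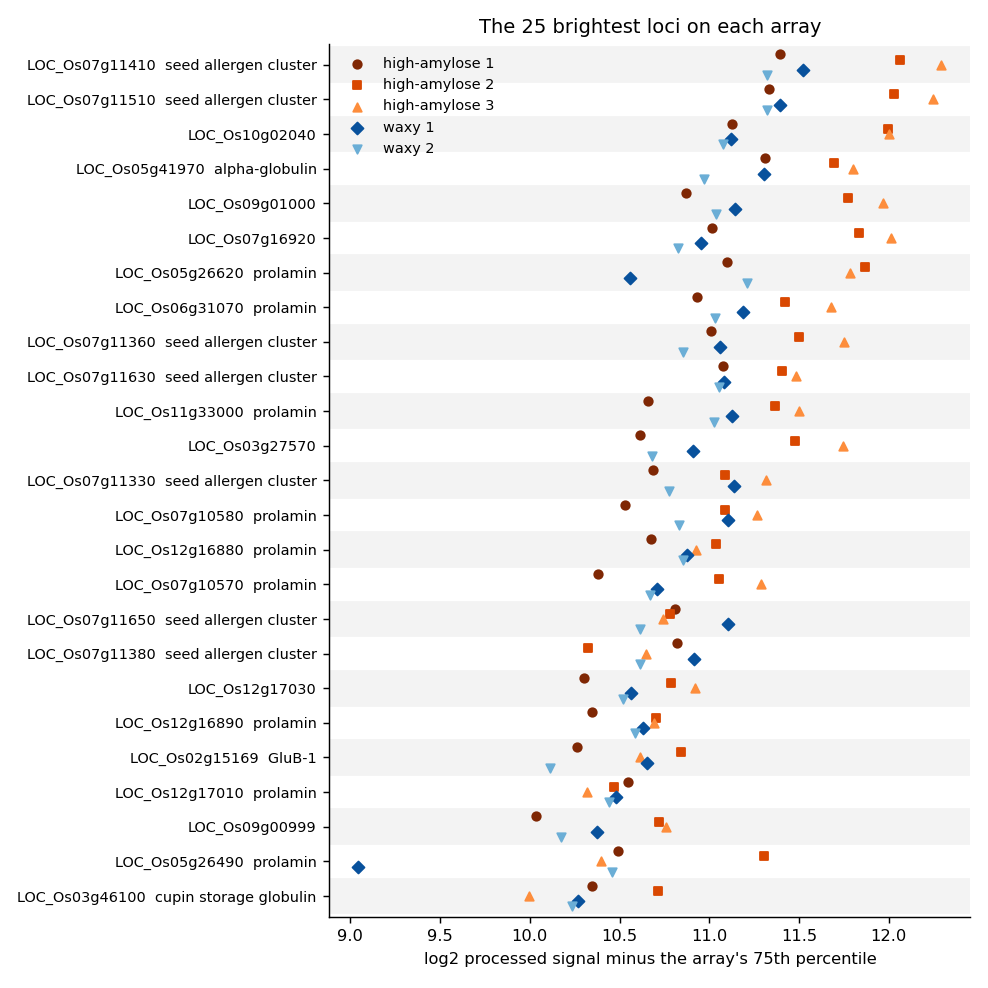
Log2 signal relative to the array's 75th percentile (horizontal axis) of the 25 brightest loci, from the brightest at the top, with 1 point per array: 3 high-amylose arrays in orange shades and 2 waxy arrays in blue shades. High-amylose replicates 2 and 3 are the highest points at most loci, and waxy replicate 1 stands apart to the left at the prolamin LOC_Os05g26490, with 9.05.

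Prolamins gave 14 loci, of which 9 were among the 25 brightest. The brightest was LOC_Os05g26620 at rank 7, with 11.10, 11.87 and 11.79 on the high-amylose arrays, against 10.56 and 11.21 on the waxy arrays. LOC_Os06g31070 at rank 8 had 10.93, 11.42 and 11.68 in high-amylose seed, against 11.19 and 11.03 in waxy seed, and LOC_Os11g33000 at rank 11 had 10.66, 11.36 and 11.50 in high-amylose seed, against 11.13 and 11.03 in waxy seed. At the second and the third of these, high-amylose replicate 1 was the lowest of the 5 arrays. The chromosome 7 prolamins LOC_Os07g10580 and LOC_Os07g10570 averaged 10.96 and 10.82 over all arrays, at ranks 14 and 16, and their high-amylose minus waxy differences were -0.01 (SE 0.43) and 0.22 (SE 0.44).

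Among the steadiest of the 200 loci were prolamins as well. LOC_Os12g17010 at rank 22 had 10.54, 10.47 and 10.32 in high-amylose seed, against 10.48 and 10.44 in waxy seed, the smallest SD over the 5 arrays of all 200 loci (0.083). LOC_Os06g31060 at rank 31 followed with an SD of 0.095, at 10.11, 10.07 and 10.24 in high-amylose seed, against 10.00 and 10.02 in waxy seed. The neighbours LOC_Os12g16880 and LOC_Os12g16890, at ranks 15 and 20, differed by 0.01 (SE 0.40) and -0.03 (SE 0.40) between the groups. For comparison, the median SD over the 5 arrays was 0.382 among the 200 loci and 0.452 among all 28945 loci tested.

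A second set of prolamins varied far more, and the low array was waxy replicate 1. LOC_Os05g26490 had 10.49, 11.30 and 10.40 in high-amylose seed, against 9.05 and 10.46 in waxy seed. LOC_Os05g26770 had 8.77, 9.27 and 7.72 in high-amylose seed, against 6.37 and 8.12 in waxy seed. LOC_Os07g11920, on another chromosome, had 10.26, 10.98 and 10.54 in high-amylose seed, against 8.96 and 10.29 in waxy seed. In each of these 3 loci waxy replicate 2 lay within the high-amylose values and waxy replicate 1 lay more than 1 below it. All 4 chromosome 5 prolamins among the 200 had a positive difference, with a median of 0.84, and none passed the test (limma with Benjamini-Hochberg, adjusted p = 1.00 for each), which 0.0276% of all loci did. Their median difference was 0.33 without waxy replicate 1 and 1.35 without waxy replicate 2. It stayed above 0 in all 4 loci under quantile scaling (median 0.53) and under normexp with quantile scaling (0.55). The same held in the authors' deposited log2 values (0.53). With JUNQ probes only, 1 of these 4 loci remained, LOC_Os05g26770 at 1.34. Whether the probes of the remaining loci read shared targets was not tested. Of the 10 other prolamins, 6 were higher and 4 lower in high-amylose seed, with a median of 0.06, but 1 was higher and 9 lower under quantile scaling, with a median of -0.18. Their median was -0.01 without high-amylose replicate 2 and 0.18 without high-amylose replicate 1.

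Glutelins, the main storage proteins of rice by mass, gave 11 loci but only 1 of the 25 brightest. GluB-1 (LOC_Os02g15169) ranked 21, with 10.26, 10.84 and 10.62 on the high-amylose arrays, against 10.65 and 10.11 on the waxy arrays. GluA-3 (LOC_Os03g31360) ranked 29, with 10.19, 10.26 and 10.44 in high-amylose seed, against 10.25 and 9.53 in waxy seed. GluB-2 (LOC_Os02g15150) ranked 35, with 9.73, 10.12 and 9.99 in high-amylose seed, against 9.91 and 9.84 in waxy seed. The groups overlapped at all 3 of them. For 9 of the 11 glutelins the difference was positive and for 2 negative, with a median of 0.19, and under quantile scaling 5 were positive and 6 negative with a median of -0.00. Without waxy replicate 2, 7 were positive and 4 negative, with a median of 0.04. The lower place of glutelins in the order is one of probe signal and does not give the amount of their RNA relative to prolamins.

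Genes of starch synthesis were few among the named loci, and each of them rested on a JMULT probe. BT1 (LOC_Os02g10800), which carries ADP-glucose into the amyloplast, ranked 107, with 7.87, 7.76 and 8.39 in high-amylose seed, against 8.31 and 8.96 in waxy seed. Starch branching enzyme I, BEI (LOC_Os06g51084), ranked 125, with 8.32, 7.26 and 7.68 in high-amylose seed, against 8.15 and 8.28 in waxy seed. Waxy (LOC_Os06g04200), whose granule-bound starch synthase makes amylose, ranked 185 over all arrays. On the 5 arrays it ranked 126, 106 and 116 in high-amylose seed, against 114 and 2693 in waxy seed, so that the array labelled waxy replicate 1 held Waxy signal at the level of the high-amylose arrays and waxy replicate 2 alone set the gene's place near the limit. RPBF (LOC_Os02g15350), a Dof transcription factor that activates storage protein genes in the endosperm, was the 1 transcription factor among the named loci. It ranked 144, with 7.62, 8.05 and 7.65 in high-amylose seed, against 7.59 and 7.70 in waxy seed.

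Of the 50 named loci, 4 were of the embryo and aleurone class. Among them were the dehydrins RAB16D (LOC_Os11g26750), RAB16C (LOC_Os11g26760) and RAB16A (LOC_Os11g26790), which respond to abscisic acid and drying. The remaining gene was 1-Cys peroxiredoxin (LOC_Os07g44430), an antioxidant of aleurone and embryo. RAB16D ranked 58, with 9.16, 9.57 and 9.08 in high-amylose seed, against 8.71 and 9.58 in waxy seed. RAB16C ranked 70, with 8.55, 9.26 and 8.58 in high-amylose seed, against 8.20 and 9.32 in waxy seed. RAB16A ranked 177, with 7.35, 8.10 and 6.81 in high-amylose seed, against 6.75 and 7.98 in waxy seed. The 3 dehydrins are neighbouring copies within a stretch of 5 loci of the array. They were highest on high-amylose replicate 2 and waxy replicate 2 and lowest on waxy replicate 1. 1-Cys peroxiredoxin, at rank 69, had 8.92, 9.57 and 8.72 in high-amylose seed, against 8.34 and 8.72 in waxy seed. All 4 differences were positive, with a median of 0.09, and under quantile scaling 1 was positive and 3 negative. Single arrays decided both sign and size: the median was -0.42 without waxy replicate 1, with 1 positive and 3 negative, it was 0.63 without waxy replicate 2, with 4 positive, and it was -0.11 without high-amylose replicate 2, with 1 positive and 3 negative. The log2 of the summed signal of the 5 embryo and aleurone markers, 2 of which are in this set, was 10.29, 10.62 and 9.43 in high-amylose seed, against 9.49 and 10.02 in waxy seed.

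The named housekeeping and stress genes came low in the list. A polyubiquitin gene (LOC_Os02g06640) ranked 130, with 8.07, 8.13 and 7.46 in high-amylose seed, against 7.83 and 7.94 in waxy seed. GOS2 (LOC_Os07g34589), which encodes the translation initiation factor eIF1, ranked 155, with 8.24, 7.86 and 6.55 in high-amylose seed, against 7.59 and 7.77 in waxy seed. The small heat shock protein gene HSP16.9A (LOC_Os01g04370), the copper-zinc superoxide dismutase gene SodCc2 (LOC_Os07g46990) and UBQ3 ranked 192, 197 and 198. HSP16.9A had 7.06, 7.88 and 6.68 in high-amylose seed, against 7.33 and 7.48 in waxy seed. High-amylose replicate 3 was the lowest array at all 5 of these loci. Of the 5 differences 2 were positive and 3 negative, with a median of -0.12, and none passed. High-amylose replicate 3 decided this direction: without it all 5 were positive, with a median of 0.22.

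**Figure D3:**
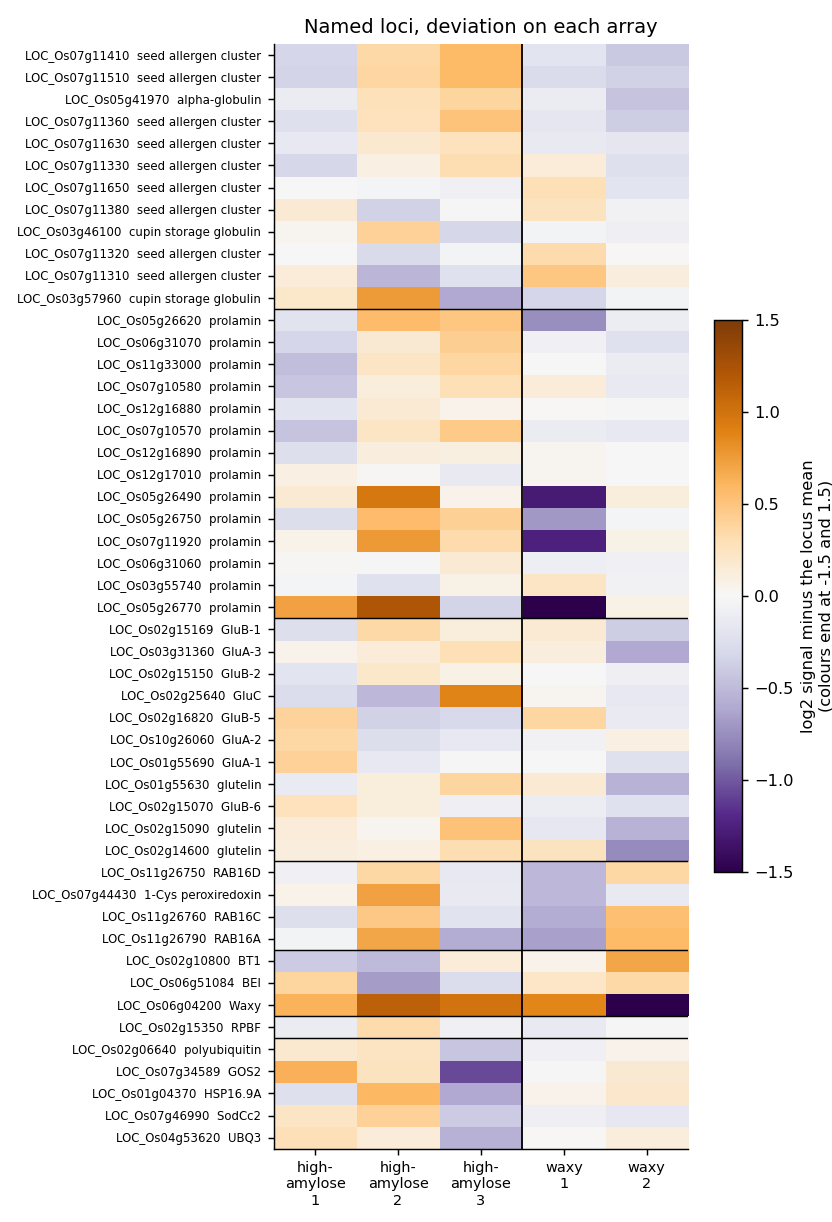
Deviation of log2 signal from each locus's mean over the 5 arrays for the 50 named loci, high-amylose arrays to the left of the black line and waxy arrays to the right, in blocks by class and by rank within a block. Waxy replicate 1 is lowest at a set of prolamins, waxy replicate 2 at Waxy, and high-amylose replicate 3 at the 5 housekeeping and stress genes in the lowest block.

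The 150 loci known only by locus name included 6 of the 25 brightest. Besides LOC_Os10g02040, these were LOC_Os09g01000, LOC_Os07g16920, LOC_Os03g27570, LOC_Os12g17030 and LOC_Os09g00999. LOC_Os09g01000 ranked 5, with 10.87, 11.78 and 11.97 in high-amylose seed, against 11.14 and 11.04 in waxy seed. LOC_Os07g16920 ranked 6, with 11.01, 11.83 and 12.01 in high-amylose seed, against 10.95 and 10.83 in waxy seed, and did not overlap between the groups. LOC_Os03g27570 ranked 12, with 10.61, 11.48 and 11.75 in high-amylose seed, against 10.91 and 10.68 in waxy seed. High-amylose replicates 2 and 3 were the highest arrays at all of these 6 loci. LOC_Os12g17030 at rank 19 averaged 10.62 over all arrays and lies next to the chromosome 12 prolamins, 3 of which are in the list. LOC_Os09g00999 at rank 23 averaged 10.41 and is the neighbour of LOC_Os09g01000.

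The most variable of the 200 loci, apart from Waxy with an SD of 2.04 over the 5 arrays, were loci of this kind. LOC_Os08g13730 had 5.86, 7.80 and 9.39 in high-amylose seed, against 8.25 and 7.90 in waxy seed (SD 1.27). LOC_Os05g41645 had 5.42, 7.51 and 8.85 in high-amylose seed, against 7.79 and 7.32 in waxy seed (SD 1.24). LOC_Os10g36972 had 5.66, 7.66 and 9.005 in high-amylose seed, against 8.09 and 7.61 in waxy seed (SD 1.22), and LOC_Os12g08290 had 6.07, 8.06 and 9.34 in high-amylose seed, against 8.36 and 7.96 in waxy seed (SD 1.19). These 4 loci, on 4 chromosomes, were alike across arrays: high-amylose replicate 3 was highest, waxy replicate 1 next, and high-amylose replicate 1 lowest by far. Their high-amylose arrays spanned more than 3 on the log2 scale and enclosed both waxy arrays. LOC_Os11g10590 varied about as much with another order, at 9.04, 7.06 and 6.59 in high-amylose seed, against 8.84 and 6.69 in waxy seed (SD 1.20). At the other end, LOC_Os08g17220 had 7.94, 7.87 and 7.74 in high-amylose seed, against 7.81 and 7.64 in waxy seed (SD 0.119).

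Together the 200 loci held 45.4%, 46.5% and 50.0% of the summed signal of all 48718 loci on the high-amylose arrays, against 46.6% and 42.4% on the waxy arrays. The mean share was 47.3% ± 2.41 (SD, n = 3) in high-amylose seed and 44.5% ± 2.95 (SD, n = 2) in waxy seed. These values overlapped, and the difference of 2.76 percentage points was similar to the spread within each group. It became -0.417 percentage points under quantile scaling and -0.297 under normexp with quantile scaling. The 10 brightest loci held 9.43%, 11.5% and 13.0% of the signal in high-amylose seed, against 9.28% and 8.89% in waxy seed. The single brightest locus held 1.13%, 1.40% and 1.68% in high-amylose seed, against 1.20% and 1.05% in waxy seed. The top of the list was thus heaviest on high-amylose replicates 2 and 3. On an array's own ranking, 275, 258 and 181 loci made up 50% of the summed signal in high-amylose seed, against 263 and 354 in waxy seed.

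By class, the 37 storage protein loci held 20.1%, 20.0% and 21.3% of the summed signal on the high-amylose arrays, against 20.0% and 18.9% on the waxy arrays. Under quantile scaling they held 21.4%, 19.5% and 18.8% on the high-amylose arrays, against 20.3% and 20.8% on the waxy arrays, so that high-amylose replicate 3 had the highest share in one scaling and the lowest in the other, and the difference of the group means turned from 1.01 to -0.670 percentage points. Globulins and allergens gave 8.88% ± 0.516 in high-amylose seed (SD, n = 3) and 8.47% ± 0.890 in waxy seed (SD, n = 2). Prolamins gave 8.41% ± 0.518 in high-amylose seed and 7.83% ± 0.671 in waxy seed, and glutelins 3.20% ± 0.434 in high-amylose seed and 3.18% ± 0.551 in waxy seed. The chromosome 5 prolamins accounted for 2.16%, 2.84% and 2.26% in high-amylose seed, against 1.17% and 2.16% in waxy seed, where waxy replicate 1 is the low value. All other prolamins together held 5.99% ± 0.360 in high-amylose seed and 6.16% ± 0.0270 in waxy seed. The 150 loci known by locus name only held more signal than the named 50, with 23.7%, 24.9% and 27.6% in high-amylose seed, against 25.3% and 21.8% in waxy seed. Shares of glutelins, of prolamins and of globulins and allergens overlapped between the groups, and for the 3 classes together the lowest high-amylose share all but met the highest waxy share.

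**Figure D4:**
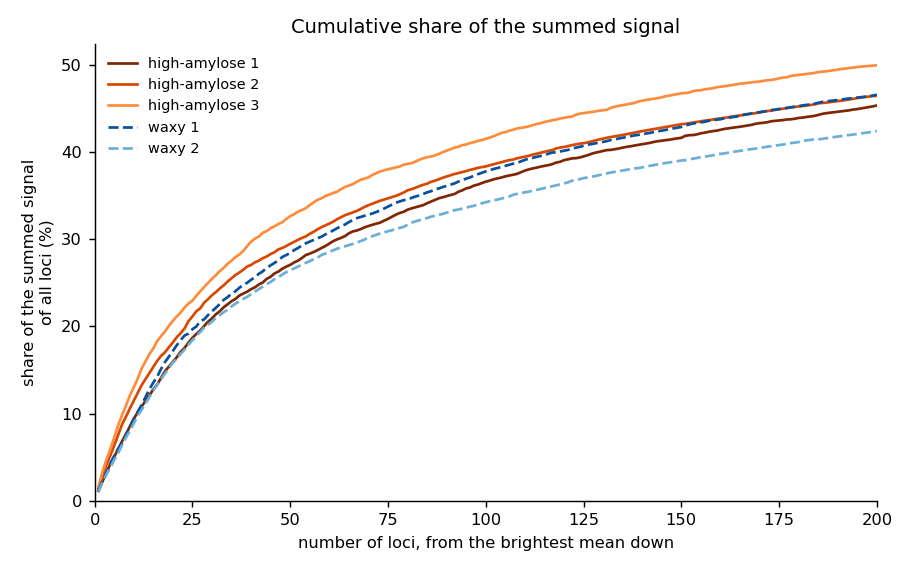
Cumulative share of the summed signal of all loci (vertical axis, %) over the 200 brightest loci in order of their mean (horizontal axis), with solid lines for the 3 high-amylose arrays and dashed lines for the 2 waxy arrays. At 200 loci the curves end between 42.4% on waxy replicate 2 and 50.0% on high-amylose replicate 3, with both groups interleaved.

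Each haplotype's own list was largely the same. The 200 brightest loci by the high-amylose mean and the 200 brightest by the waxy mean shared 185 loci, which is 92.5% of each list, and Spearman's rho between the group means of the 200 loci was 0.930 across loci, a description that holds no independent replicates. The high-amylose list and the waxy list held 192 and 193 of the 200 loci. On single arrays, 177, 184 and 174 of the 200 were among the array's own 200 brightest in high-amylose seed, against 187 and 183 in waxy seed. A core of 146 loci was in the own list of every array, and 271 loci were in at least 1. Pairs of arrays shared between 154 loci, for high-amylose replicates 1 and 3, and 179, for high-amylose replicate 2 and waxy replicate 2. High-amylose replicate 1 shared 178 with waxy replicate 1 and 169 with waxy replicate 2, against 167 with high-amylose replicate 2. The 2 waxy arrays shared 173, and pairs of arrays from different haplotypes shared 166 to 179.

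The order at the top was close in both haplotypes. LOC_Os07g11410 and LOC_Os07g11510 ranked 1 and 2 by both means, alpha-globulin ranked 5 in high-amylose seed and 3 in waxy seed, and LOC_Os06g31070 ranked 9 in high-amylose seed and 4 in waxy seed. LOC_Os07g16920 ranked 4 in high-amylose seed and 12 in waxy seed. Of the 10 largest shifts of rank among the 200, 3 were of loci ranked 118 to 139 over all arrays and 7 of loci ranked 166 to 200. After Waxy, which ranked 115 by the high-amylose mean and 540 by the waxy mean, came LOC_Os11g46300, at 262 in high-amylose seed and 141 in waxy seed, and LOC_Os08g43190, at 248 in high-amylose seed and 129 in waxy seed. LOC_Os10g14170 ranked 159 in high-amylose seed and 261 in waxy seed. The prolamin LOC_Os05g26770 ranked 96 in high-amylose seed and 190 in waxy seed, and LOC_Os12g34018 ranked 117 in high-amylose seed and 201 in waxy seed. LOC_Os12g02320, LOC_Os04g52700, LOC_Os08g35340 and LOC_Os07g47650 completed these 10. Among loci bright in 1 haplotype but outside the 200, and picked after their values were seen, LOC_Os05g35690 had 7.83, 7.22 and 7.17 in high-amylose seed, against 7.10 and 1.34 in waxy seed. LOC_Os02g37780 had 0.62, 7.62 and 8.21 in high-amylose seed, against 7.10 and 7.27 in waxy seed. In each of them 1 array stood far below the other 4.

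The comparison of haplotype 8 with haplotype 4, the one the study was designed for, gave no call among the 200 loci (limma with Benjamini-Hochberg over all 28945 loci tested, smallest adjusted p = 1.00). Over all loci tested 8 passed, which is 0.0276%. That background depended on the waxy arrays, with 71 loci passing without waxy replicate 1 (0.245%) and 179 without waxy replicate 2 (0.618%). At an unadjusted p under 0.05, limma gave 0 of the 200, against 3.4% of all loci. The median SE of a difference was 0.444 on the log2 scale for the 200 loci and 0.463 for all loci. Differences over 1 in size occurred at 3 of the 200, or 1.50%, all positive: Waxy, the prolamin LOC_Os05g26770 and LOC_Os12g34018. The share over all loci was 7.55%.

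The largest positive difference was that of Waxy, at 2.29 (SE 1.03, limma adjusted p = 1.00), and it rested on waxy replicate 2. Without waxy replicate 1 it was 4.55 and passed (limma adjusted p = 1.19e-04), the 1 call of a locus of the list in any setting, and without waxy replicate 2 it was 0.04. LOC_Os05g26770 followed with 1.34 (SE 0.64), LOC_Os12g34018 with 1.05 (SE 0.52), and the prolamins LOC_Os05g26490 with 0.98 (SE 0.54) and LOC_Os07g11920 with 0.97 (SE 0.51). None of these 4 passed (limma adjusted p = 1.00 for each). Without waxy replicate 1 the 3 prolamins had differences of 0.46, 0.27 and 0.31, and without waxy replicate 2 they stood at 2.22, 1.69 and 1.64. LOC_Os12g34018 was at 0.66 without high-amylose replicate 3 and at 0.28 with a scan date term for high-amylose replicates 2 and 3. LOC_Os12g34018 had 7.41, 8.18 and 8.96 in high-amylose seed, against 7.38 and 6.88 in waxy seed. LOC_Os03g16940 had the most even separation, with 8.74, 9.06 and 9.02 in high-amylose seed, against 7.99 and 8.10 in waxy seed. Its groups were apart by more than the spread within either, and its difference of 0.90 (SE 0.40), or 1.86-fold, ranged from 0.54 to 1.00 over all alternatives, yet it did not pass (limma adjusted p = 1.00, and 0.303 at the lowest of the alternatives). Its second probe gave 1.05.

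The largest negative differences were smaller. LOC_Os12g02320 had 7.99, 8.32 and 6.71 in high-amylose seed, against 8.25 and 8.79 in waxy seed, a difference of -0.85 (SE 0.55). LOC_Os08g43190 had 6.90, 6.82 and 7.37 in high-amylose seed, against 7.43 and 8.24 in waxy seed, and did not overlap between the groups (-0.81, SE 0.45). LOC_Os01g15270 had 8.50, 8.64 and 8.04 in high-amylose seed, against 8.88 and 9.22 in waxy seed, and did not overlap either (-0.65, SE 0.42), with a second probe at -0.66. LOC_Os11g46300 at -0.69 (SE 0.58), BT1 at -0.63 (SE 0.44) and LOC_Os04g52700 at -0.62 (SE 0.52) overlapped between the groups. None of these 6 passed (limma adjusted p = 1.00 for each). Leaving out 1 array moved 5 of them by more than 1.5 times. LOC_Os12g02320 was at -0.37 without high-amylose replicate 3, and LOC_Os08g43190 and BT1 were at -0.41 and -0.31 without waxy replicate 2. LOC_Os11g46300 was at -0.20 without high-amylose replicate 2, and LOC_Os04g52700 was at 0.14 without waxy replicate 1. LOC_Os01g15270 stayed between -0.82 and -0.48 when any 1 array was left out.

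**Figure D5:**
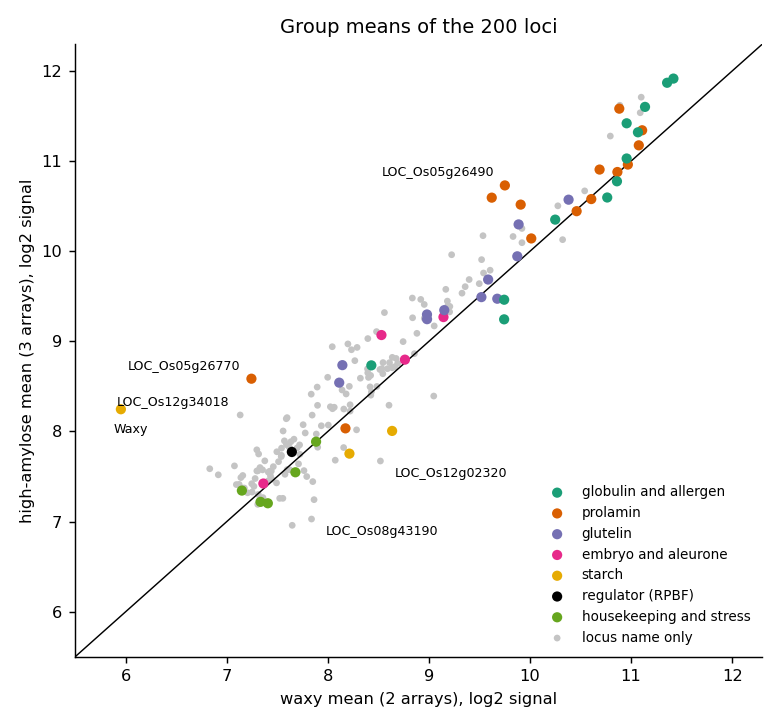
Mean log2 signal of the 3 high-amylose arrays (vertical axis) against that of the 2 waxy arrays (horizontal axis) for the 200 loci, 1 point per locus, coloured by class, with the line of equal means. Most loci lie close to the line, and Waxy stands farthest from it, at a high-amylose mean of 8.25 and a waxy mean of 5.95.

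Groups did not overlap at 21 of the 200 loci (10.5%), 18 of them higher and 3 lower in high-amylose seed. Over all loci tested the groups did not overlap at 13.6%, with 8.53% higher and 5.03% lower. The division by direction followed the scaling: under quantile scaling 7 of the 200 were higher and 12 lower without overlap, together 9.5% against 13.4% of all loci, and in the deposited log2 values 7 were higher and 13 lower, together 10.0% against 13.4%. Likewise, 160 of the 200 (80.0%) had a positive difference, against 53.9% of all loci tested, and the median difference was 0.19, against 0.03 for all loci tested. That contrast depended on the filter: with no filter on dim probes the median over all 48857 loci was 0.21, beside 0.19 for the 200. Under quantile scaling 83 of the 200 were positive and their median was -0.04. The sign of the median of the brightest loci thus changed with the scaling.

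The arrays that carried the positive values were high-amylose replicates 2 and 3, the dimmest and of 1 scan date. Both lay above the other 3 arrays at 99 of the 200 loci (49.5%), against 25.5% of all loci tested. Under quantile scaling this was so at 41 loci (20.5%), against 20.3% of all loci. Each locus's deviation from its own mean over all arrays was also taken. Its median over the 200 loci was -0.18, 0.22 and 0.15 on the high-amylose arrays, against -0.06 and -0.19 on the waxy arrays. Differences within a group were often larger than those between groups: the 3 high-amylose arrays spanned more than the group difference at 182 of the 200 loci, and the 2 waxy arrays did so at 104. A range over arrays and a difference of means are unlike measures, and no share over all loci is given for these counts. With replicates 2 and 3 of the high-amylose group given a term of their own, 95 loci were positive and the median was -0.02, against -0.06 for all loci. The difference then rests on high-amylose replicate 1 alone against the waxy arrays, which is still of another scan date. Green outer layer markers, none of them among the 200, were also higher on high-amylose replicates 2 and 3. The median of their deviations was 1.02 and 2.57 there, against -1.16 on high-amylose replicate 1 and -1.63 and -1.01 on the waxy arrays. Of the 5 green outer layer markers, 2 were well above background on all 5 arrays, and the log2 of the summed signal of all 5 was -0.28, 1.80 and 3.55 in high-amylose seed, against -0.72 and 0.14 in waxy seed. Other markers ran differently. Median deviations of the starchy endosperm markers were 0.45, -0.55 and -0.16 in high-amylose seed, against -0.02 and 0.29 in waxy seed. Those of the embryo and aleurone markers were 0.55, 0.70 and -0.99 in high-amylose seed, against -0.51 and 0.10 in waxy seed. The part of any of these markers in the result was not tested.

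Part of the 200 loci were neighbours on a chromosome, which the choice did not use. How many would be so among loci drawn at random was not worked out. Loci of the list that lay within 10 loci of each other on the array formed 15 runs with 48 members (24.0%), and 8 of the runs held 3 or more. The longest was the allergen cluster with 9, followed by 5 loci on chromosome 5, of which 4 are prolamins, by a run of 4 glutelins on chromosome 2 and by a run of 4 loci on chromosome 12, of which 3 are prolamins. The 3 dehydrins form a run on chromosome 11. A run on chromosome 1, with LOC_Os01g10420, LOC_Os01g10490 and LOC_Os01g10580 at rank 57 or lower, holds no named locus. Chromosome 7 carried 29 of the 200 loci (14.5%), with 7.91% of the loci on the array, and the members there held 11.8%, 11.9% and 13.6% of all signal in high-amylose seed, against 12.5% and 11.0% in waxy seed.

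More than 1 probe was present for 45 loci of the list. Since the brightest probe stood for a locus and the brightest loci were listed, gaps to the second probe are positive and widened by the choice itself, and they are given as a description. The second-brightest probe lay below the first by a median of 6.08 on the log2 scale, with a range of 0.03 to 16.77, and by more than 5 at 27 of the 45 loci. The largest gap was at LOC_Os10g02040, at rank 3, whose other probe averaged -5.30. For GluA-1 (LOC_Os01g55690) the gap was 0.33, for GluB-6 (LOC_Os02g15070) 1.94 and for GluC (LOC_Os02g25640) 10.85. First and second probes gave the same sign of the group difference at 30 of the 45 loci.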

How the data were processed

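Agilent's Feature Extraction made the deposited scanner files, in which the processed signal is an intensity, background-subtracted within an array and not scaled between arrays, per the file headers. The authors also deposited log2 values of these arrays. The submitters' processing notes name limma, and no source used here gives the normalization of that table. Its columns differed from each other as did quantile-scaled log2 intensity (r of 0.9996 to 0.9997). The median of its columns was -0.0172, 0.0395 and 0.0270 in high-amylose seed, against -0.0227 and 0.00414 in waxy seed. Scale and direction are settled by that comparison, while the centring of each probe stays unknown.

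Control spots and outlier spots were left out and spots of a probe averaged. The value is log2 of processed signal minus the array's 75th percentile, with 1 probe per locus, the one with the highest mean. Loci well above background on at least 2 arrays (28945) were tested with limma 3.58.1 in R 4.3.3 (lmFit, eBayes, two-sided, high-amylose minus waxy, Benjamini-Hochberg threshold 0.05). The fit was checked on simulated data. Other tools were version 1.17.8 of data.table, Python 3.11.15, pandas 2.3.3 and matplotlib 3.10.9. Alternatives were quantile scaling, normexp with an offset of 50 on median signals, the deposited log2 values, filters, probe choice, scan date terms and leaving out each array. The precision is limited by the number of arrays. Replicate numbers follow the order of deposit and pair no arrays, and p-values reflect only the spread among these accessions and arrays.

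No annotation used here pairs MSU locus names with genes. Names come from general knowledge. For 26 of the 50 named loci RefSeq (assembly ASM3414082v1) holds a symbol of the gene or its family, on the same chromosome in all 26. Some loci shared a symbol: all of the allergen cluster were set against RAG1, and LOC_Os07g10570 and LOC_Os07g10580 against PROLM25. No RefSeq entry carries an MSU locus name, so no locus was paired with an entry. The check thus reaches the chromosome and not the single locus. Sequences were not used here.

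The 200 loci, classes, markers and tests were chosen with earlier results of these data known. Named were the 25 brightest, the 3 brightest of each class of 5 or more, the 6 largest positive and negative differences, the 6 largest and 3 smallest SDs, the 10 largest shifts of rank and the 3 loci on either side of the limit. Other names complete small counts and were chosen after values were seen.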

Additional observations from a re-analysis of the deposited data

Results flagged for a closer look

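One signal lay outside the loci compared. The array also carries 139 loci without a chromosome in their name, and 1 of them, ChrSy.fgenesh.mRNA.27, averaged 7.82 over the 5 arrays and would have ranked 134 among the 200. It had 8.21, 7.82 and 7.56 on the high-amylose arrays, against 8.24 and 7.29 on the waxy arrays, and was set apart because its level exceeds that of the 200th locus while the choice by locus name leaves it out. Groups of 2 and 3 arrays were too small for a test of single outlying arrays.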

How the results depend on the processing

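Which loci belong to the list depended little on single arrays and on scaling, and more on probe choice. Of the 200, 192 to 197 remained when 1 array was left out, 199 under quantile scaling and 193 under normexp on median signals. With JUNQ probes only 167 remained, and with the mean of all probes of a locus 165. The haplotype lists shared 177 to 187 loci without 1 array, against 185. The number of loci with a positive difference was 160 and became 83 under quantile scaling, 80 under normexp, 69 in the deposited log2 values and 95 with the scan date of high-amylose replicates 2 and 3 as a term or left out. The median difference, 0.19, became -0.0426, -0.0459, -0.0658 and -0.0250 under the same settings. Leaving out 1 array gave 133 to 159 positive loci and medians of 0.13 to 0.34. Calls among the 200 numbered 0 to 1 without 1 array, the 1 being Waxy without waxy replicate 1, and 0 under all other alternatives. Over all settings limma gave 0 to 19 of the 200 an unadjusted p under 0.05, the 19 (9.5%) without high-amylose replicate 1, where 12.8% of all loci did so. Over all loci 8 passed the adjusted threshold, against 3 to 179 without 1 array and 0 to 21 under the other alternatives, the 179 without waxy replicate 2 and 71 without waxy replicate 1. Fits without a waxy replicate, or without high-amylose replicates 2 and 3, assume that the lone array varies like the other group.

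The difference in share of signal of the 200 loci, 2.76 percentage points, was -0.417 under quantile scaling, -0.297 under normexp and 0.672 to 4.84 without 1 array. That of the storage proteins, 1.01, was -0.670, -0.623 and 0.464 to 1.55. LOC_Os11g46300, at -0.69, was at 0.28 with the scan date of high-amylose replicates 2 and 3 as a term or left out, and LOC_Os04g52700, at -0.62, ranged from -1.38 to 0.14 without 1 array, with 0.14 without waxy replicate 1. The cause of these changes was not tested. Normexp on mean signals was planned, and median signals, chosen after the files were seen, took its place. No paired analysis was possible because replicate numbers were given in order of deposit and each array is another accession.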
